A study of Mus musculus with 6 samples.

Results

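The fibroblast growth factor (FGF) receptors and ligands examined here are 10 genes of sorted mouse chondrocytes, 5 receptor genes (*Fgfr1*, *Fgfr2*, *Fgfr3*, *Fgfr4* and *Fgfrl1*) and 5 ligand genes (*Fgf1*, *Fgf2*, *Fgf9*, *Fgf10* and *Fgf18*), taken by name from a table of 22032 genes. All 10 were found by symbol. RNA-seq was measured in cartilage cells of 3 embryonic samples (E16.5, which the labels give as 16.5 weeks) and of 3 adult samples from 2 month old male B6 mice. Cells of both stages were isolated as LIN-ALP-BMPR1B+, which for the adult animals meant CD31-CD45-Ter119-ALP-BMPR1B+, and no treatment or altered genotype is named for either group. BMPR1B is a bone morphogenetic protein receptor of the cell surface and ALP is alkaline phosphatase. The number of animals behind each sample is not given in the sources used here, so p-values measure the spread between these samples, and sex, strain and litter of the embryos are likewise not given.

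FGF receptors are tyrosine kinases of the cell surface that are activated when a secreted FGF and a heparan sulfate chain bind together, and they signal mainly through FRS2 and the MAP kinases. In growing cartilage FGFR3 is known as a brake on chondrocyte proliferation, and FGF18, made largely around the cartilage, is one of its ligands there. Signaling is limited by inhibitors that it induces itself, among them the Sprouty and DUSP proteins. FGFRL1 has no kinase domain, and FGF2 is stored on heparan sulfate in the matrix around chondrocytes.

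Levels are given in TPM, the abundance of a transcript corrected for its length and relative to all transcripts of the sample, which can be compared between genes. *Fgf18* and *Fgf10* averaged 54.3 and 11.01 TPM in embryonic chondrocytes but 4.53 and 0.247 TPM in adult ones, and *Fgfr4* went from 14.2 TPM to listings of 0 in 2 of 3 adult samples. *Fgfr2* and *Fgfrl1* were lower in the adult samples by about 1 on the log2 scale, *Fgf1* was higher, and *Fgfr3*, *Fgf2* and *Fgf9* did not pass the test. *Fgfr1* was the most abundant receptor in all 6 samples. Among the genes that FGF signaling is known to induce, 10 of 16 were lower in the adult samples and 0 were higher, against 21.4% and 23.9% of all genes tested. Other signals can induce such genes too, and the part of FGF signaling was not tested. Of the markers of perichondrium, tendon and fibroblasts 7 of 10 were lower too, as were 10 of 13 chondrocyte markers.

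The promoters of *Fgf18* and *Fgf10*, the ligands that were lower in the adult samples, are shown so that the sequences before their starts can be read beside their levels. Each run is the 250 bases before the start of the entry in the RefSeq promoter table (GRCm38.p6), 5′ to 3′ on the strand of the gene, and lies outside the GENCODE exons of the gene. Capitals mark GGGCGG, the GC box bound by SP factors, which is on the other strand in both and so reads CCGCCC. The positions are chr13:118714449-118714698 (plus strand) for *Fgf10* and chr11:33147401-33147650 (minus strand) for *Fgf18*.
*Fgf10*: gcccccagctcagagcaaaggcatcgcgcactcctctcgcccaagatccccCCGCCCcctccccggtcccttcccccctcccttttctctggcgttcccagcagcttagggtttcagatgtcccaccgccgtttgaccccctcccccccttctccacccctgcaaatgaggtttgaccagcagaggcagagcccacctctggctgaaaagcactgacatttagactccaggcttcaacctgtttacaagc
*Fgf18*: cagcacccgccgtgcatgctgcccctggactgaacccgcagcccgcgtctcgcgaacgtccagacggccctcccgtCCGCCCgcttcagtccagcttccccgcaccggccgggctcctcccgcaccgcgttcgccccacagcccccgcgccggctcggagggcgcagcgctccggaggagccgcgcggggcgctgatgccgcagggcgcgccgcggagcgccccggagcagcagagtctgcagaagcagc

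Of the 10 members 8 had an entry in the RefSeq promoter table, *Fgfr1* and *Fgf1* being the other two. The *Fgf18* promoter held 77.2% G and C and 37 CpG dinucleotides, more CpG than 97.8% of the 32851 promoters of the table, whose median was 6. The *Fgf10* promoter held 61.2% G and C and 8 CpG. In the windows of *Fgfr4*, *Fgf2* and the first *Fgfr3* entry, 178, all 250 and 50 bases lie in an exon of another transcript of the gene, and their sequences are not shown. A GC box was present in 7 of the 9 entries of the members (*Fgfr3* has 2 entries) and in 32.7% of all promoters. Neither TATAAA, the TATA box, nor TGTGGT, a RUNX motif, nor AACAAT, a SOX motif, was found on either strand in any of the 9 entries, while 12.4%, 14.1% and 9.42% of all promoters held them. CCGGAAG, an ETS motif, was found in that of *Fgfrl1* alone and in 6.91% of all promoters. None of these motifs overlapped another, except that the 2 GC boxes of the second *Fgfr3* entry share a base. These matches describe the windows alone.

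The table holds log2(TPM + 1) and no counts, so depth behind a value is unknown and its precision rests on the spread of 3 samples. The 2 stages were tested against each other by limma on this scale, over 13125 genes that averaged 1 TPM or more, and the fold changes, adult minus embryonic, are on this log2 scale, which understates the change of low genes. Of these genes 45.3% had an adjusted p under 0.05 (Benjamini-Hochberg over all genes), 23.9% upward and 21.4% downward from embryo to adult. Their median log2 fold change was 0.16, and 0.03 when samples were scaled by the median of ratios. Of the 13 chondrocyte markers, all present, 10 were lower in the adult and 2, *Sox9* and *Sox5*, were higher, with a summed level of 29494 to 31174 TPM in the embryo, against 8887 to 11796 TPM in the adult, and *Alpl*, whose product the sort gated against, was at 14.4 to 17.9 TPM and 32.7 to 38.6 TPM. *Bmpr1b* was at 16.4 to 20.3 TPM in the embryo, against 4.51, 18.5 and 13.4 TPM in the adult, *Pecam1* (CD31) did not exceed 6.87 TPM and *Ptprc* (CD45) did not exceed 2.29 TPM. Summed over 7 leukocyte markers the level was 5.71 to 14.7 TPM in the embryo, against 20.4 to 86.3 TPM in the adult. Over 6 endothelial markers it was 10.9 to 35.6 and 4.196 to 13.05 TPM. Over 6 erythroid markers it was 256.9, 7.77 and 8.36 TPM in the embryo, where sample 1 stood alone, against 11.9 to 43.6 TPM in the adult. Over 7 muscle markers it was 70.6 to 74.1 and 2.03 to 15.9 TPM. Most of the embryonic muscle sum was *Des*, at 46.0 to 50.6 TPM, then 0.739 to 1.11 TPM. Of 6 muscle markers tested 1, *Des*, was lower in the adult and 0 were higher, against 21.4% and 23.9% of all genes tested. *Cd3e*, which defines T cells, was listed at 0 in all 6 samples and *Myog*, a muscle factor, in the adult samples.

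All 10 members passed the filter on low values. *Fgfr4* and *Fgf10* passed it through the embryonic samples alone and *Fgf1* through the adult samples alone. The stage means of a gene that passes in this way have to differ, though it need not pass the threshold. The calls of these 3 are therefore a description and are left out of the count that follows. Of the other 7 members, with a mean of at least 1 TPM at both stages, 4 had an adjusted p under 0.05. Of all genes with such a mean 44.7% did, counting both directions. All 4 members were lower in the adult, and 1 of them, *Fgfr1*, kept its call under 5 of 15 alternatives. The ranges of the stages were separate in the same number of these 7 members, 4, all with the adult samples below. Over all genes tested, a wider set that includes genes below that mean at either stage, the ranges were separate in 56.5%. In 30.7% the adult samples were above and in 25.9% below.

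**Figure D1:**
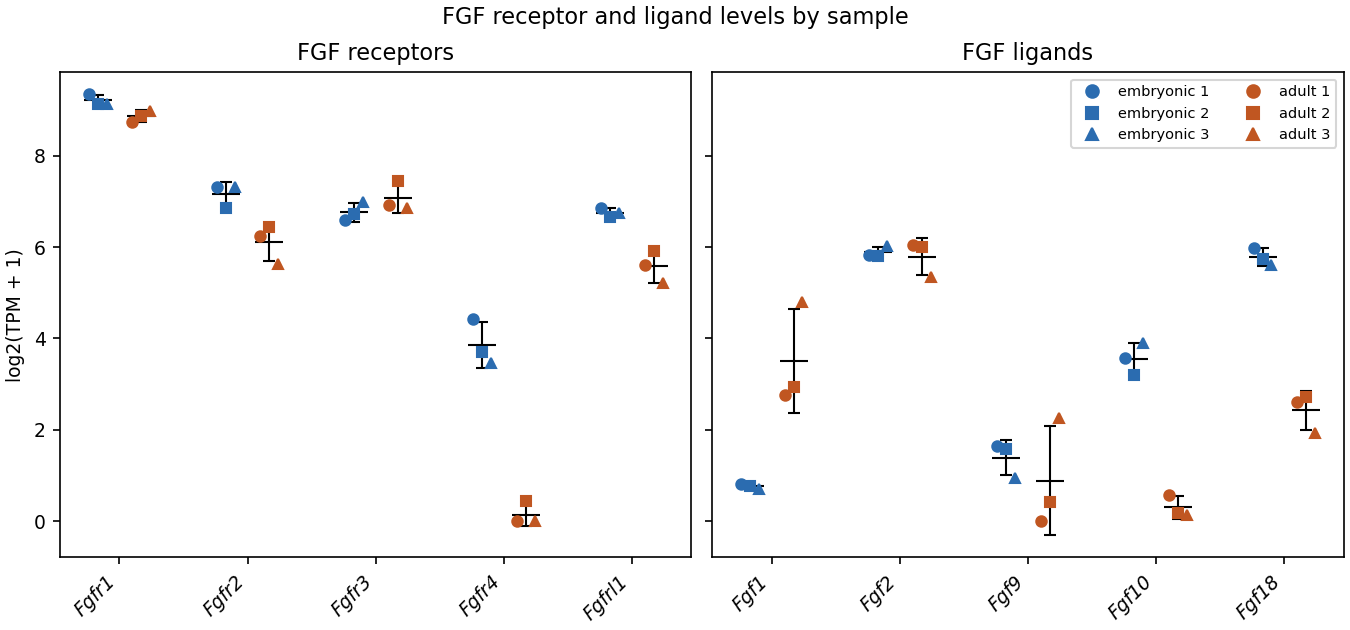
Levels of the 5 receptors (left) and 5 ligands (right) as log2(TPM + 1) in each of 3 embryonic (blue) and 3 adult (orange) samples, with the mean (dash) and SD (bar) and a symbol shape per sample number. *Fgfr4*, *Fgf10* and *Fgf18* stand apart between the stages, and *Fgf1* and *Fgf9* are highest in adult sample 3.

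*Fgfr1*, encoding the receptor known from perichondrium and hypertrophic cartilage, lies on chromosome 8 from 25513654 to 25575718 (GRCm38, as all positions here). It was at 646.8, 561.9 and 562.5 TPM in the embryo, against 421.7, 466.3 and 505.8 TPM in the adult, so the stages did not overlap but adult sample 3 came close. Its log2 fold change was -0.35 (standard error, SE, 0.123, limma adjusted p = 0.0469). The call was kept under 5 of the 15 alternatives. The adjusted p was 0.287 under quantile normalization and 0.123 without the 20 highest genes. It was also lost with each embryonic sample and with adult samples 1 and 2 left out, with changes of -0.28 (adjusted p = 0.168), -0.38 (0.0809) and -0.38 (0.0922) without embryonic replicates 1, 2 and 3 and of -0.28 (0.0965) and -0.35 (0.0732) without adult replicates 1 and 2. An antisense gene, *Gm16159*, shares 164 exonic bases with it and did not exceed 8.02 TPM.

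*Fgfr2*, a receptor of early condensations and perichondrium, lies on chromosome 7 from 130162451 to 130266808 by RefSeq. It was at 158.7, 114.2 and 157.0 TPM in the embryo, against 75.0, 85.9 and 48.7 TPM in the adult. Every adult value was lower than every embryonic one, with adult sample 3 the lowest. This was a log2 fold change of -1.05 (SE 0.230, limma adjusted p = 0.00612), and with each sample left out it ran from -1.22 to -0.81. A readthrough annotation in GENCODE joins *Fgfr2* to *Ctbp2*, with which it shares 314 exonic bases. *Ctbp2*, on the same strand, was also lower in all adult samples, at 102.4, 122.4 and 114.0 TPM, then 78.1, 62.7 and 68.7 TPM. The part of reads from the shared bases in the *Fgfr2* difference was not tested.

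*Fgfr3* lies on chromosome 5 from 33721674 to 33737068. It was at 94.99, 104.3 and 126.1 TPM in the embryo, against 120.9, 173.9 and 114.4 TPM in the adult. The stages overlapped, since embryonic sample 3 was above adult samples 1 and 3. On the log2 scale the change was 0.31 with a 95% confidence interval of -0.12 to 0.75 (limma adjusted p = 0.212), so a rise of up to 0.75 and a small fall are both within the interval. *Fgfr3* passed the threshold under none of the 15 alternatives, where its adjusted p lay between 0.117 and 0.57. A gene on the other strand, *G630022F23Rik*, shares 998 exonic bases with *Fgfr3* and has no level among the listed genes.

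*Fgfr4*, a receptor better known from liver and muscle, lies on chromosome 13 from 55152640 to 55168759. It was at 20.5, 12.1 and 9.98 TPM in the embryo, but was listed at 0, 0.368 and 0 TPM in the adult. No embryonic value was near an adult one, and no ratio is given against listings of 0. The limma adjusted p was 2.64e-04, for a gene that passed the filter through the embryonic samples alone. Among all listed genes, 6 values of 0 stood beside at least 20 TPM in both other samples of the stage, so absence cannot be read from a listing of 0.

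*Fgfrl1*, the receptor without a kinase domain, lies on chromosome 5 from 108692382 to 108706924. It was at 113.9, 99.96 and 106.6 TPM in the embryo, against 47.6, 59.3 and 36.0 TPM in the adult. The embryonic values were tight, and the adult values all lay below them. The change came to -1.17 (SE 0.196, limma adjusted p = 0.00152).

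Together *Fgfr1* to *Fgfr4* summed to 921.0, 792.5 and 855.6 TPM in the embryo, against 617.5, 726.4 and 668.9 TPM in the adult. The share of a receptor in this sum does not change when all values of a sample are multiplied by one factor. *Fgfr1* made up 69.0% ± 2.81 (SD, n = 3) of it in the embryo, against 69.4% ± 5.79 (SD, n = 3) in the adult, with overlapping values. The share of *Fgfr2* was 17.2%, 14.4% and 18.4% in the embryo, against 12.1%, 11.8% and 7.28% in the adult. That of *Fgfr3* was 10.3%, 13.2% and 14.7% and then 19.6%, 23.9% and 17.1%, above the embryonic values in all adult samples where the *Fgfr2* share was below them. For both shares the exact two-sided permutation test gave p = 0.1, the smallest value that 3 samples against 3 allow, and p = 1 for the share of *Fgfr1*. Within a sample the log2 ratio of *Fgfr3* to *Fgfr1* was -2.45 ± 0.31 (SD, n = 3) in the embryo, against -1.79 ± 0.36 (SD, n = 3) in the adult, a difference of 0.66 (exact permutation p = 0.1) that separated embryonic sample 3 (-2.16) from adult sample 3 (-2.14) by little.

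By level, *Fgfr1* stood first among the receptors at both stages. In the embryonic samples *Fgfr2*, *Fgfr3* and *Fgfrl1* followed with overlapping ranges between neighbours, and *Fgfr4* came last. In the adult samples *Fgfr3* stood above *Fgfr2* without overlap, *Fgfr2* and *Fgfrl1* overlapped, and *Fgfr4* was again last. *Fgfr1* was above 98.9% of all listed genes in the embryonic samples and above 98.8% in the adult samples.

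**Figure D2:**
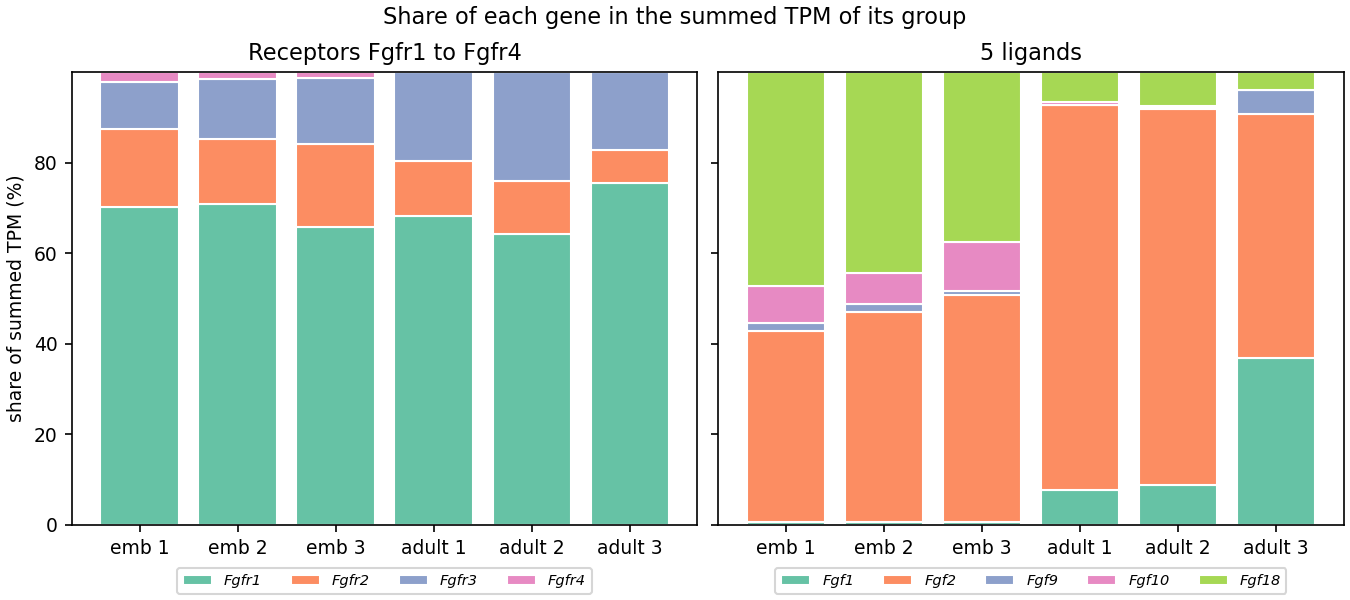
Share in percent of each receptor in the summed TPM of *Fgfr1* to *Fgfr4* (left) and of each ligand in the summed TPM of the 5 ligands (right), 1 stacked bar per sample. The *Fgfr1* share overlaps between the stages, while *Fgf18* takes 37.5% to 47.2% of the ligand sum in the embryo, against 3.87% to 7.47% in the adult.

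*Fgf18*, encoding the cartilage growth factor named above, lies on chromosome 11 from 33117430 to 33147400. It was at 62.5, 52.8 and 47.7 TPM in the embryo, against 5.12, 5.64 and 2.83 TPM in the adult. The lowest embryonic value was far above the highest adult one. The log2 fold change was -3.35 (SE 0.298, limma adjusted p = 5.27e-05), and it lay between -3.51 and -3.11 with each sample left out. Its log2 ratio to *Fgf2* within a sample was -0.11 ± 0.29 (SD, n = 3) in the embryo, against -3.65 ± 0.16 (SD, n = 3) in the adult (exact permutation p = 0.1, the smallest possible).

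*Fgf10*, which drives limb bud outgrowth from the mesenchyme, lies on chromosome 13 from 118669791 to 118792115. It was at 10.9, 8.21 and 13.9 TPM in the embryo, against 0.5, 0.135 and 0.107 TPM in the adult. All adult values were under 1 TPM, so the size of the change depends on the pseudocount. Its log2 fold change was -3.25 (SE 0.425, limma adjusted p = 4.1e-04), and -5.14 with a pseudocount of 0.1. An antisense gene, *Gm16263*, overlaps part of its exons.

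**Figure D3:**
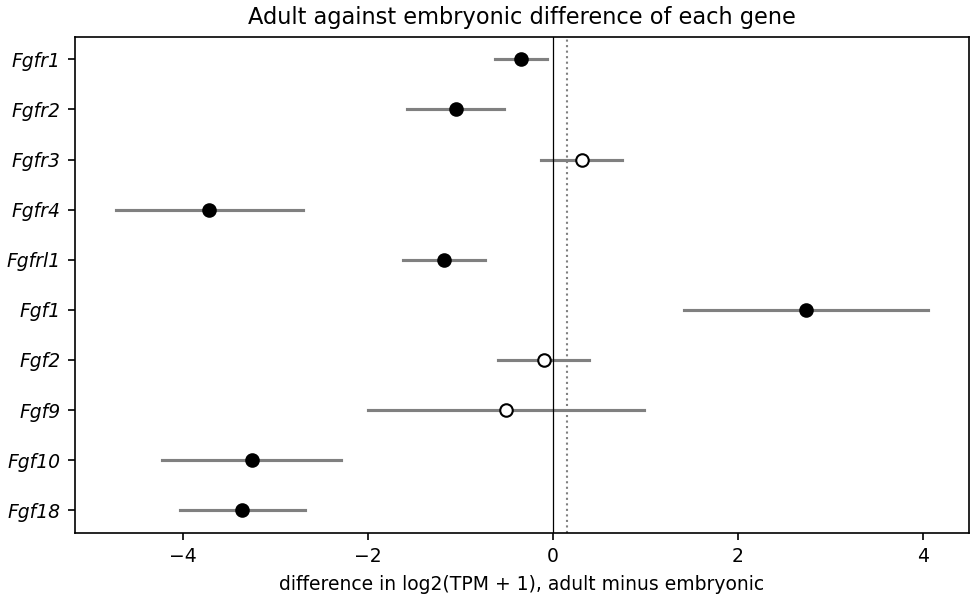
Difference of each member in log2(TPM + 1), adult minus embryonic, with its 95% confidence interval. For *Fgfr4*, *Fgf10* and *Fgf1*, which are near 0 TPM at one stage, its size depends on the pseudocount. Filled circles had a limma adjusted p under 0.05 and the dotted line is the median of all genes tested, 0.16. The intervals of *Fgfr3*, *Fgf2* and *Fgf9* cross 0.

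Markers of the tissue around the cartilage were mostly lower in the adult samples, as were *Fgf18*, *Fgf10*, *Fgfr2*, *Fgfr4* and *Fgfrl1*. So were 10 of the 13 chondrocyte markers. Of 10 markers of perichondrium, tendon and fibroblasts 7 were lower in the adult samples and 0 higher, against 21.4% and 23.9% of all genes tested. Their summed level was 14464 to 16878 TPM in the embryo, against 969 to 2036 TPM in the adult. *Col1a1*, encoding type I collagen, was at 4862 to 5971 TPM and then at 170.4 to 637.0 TPM, and *Scx*, a tendon transcription factor, at 32.6 to 44.2 TPM and then at 0, 4.59 and 0 TPM. In bulk samples, fewer cells of a type and less RNA per cell cannot be told apart, and the part of these cells in the FGF differences was not tested. Summed markers of the joint surface and of bone were higher in the adult. The 5 synovial lining and superficial zone markers summed to 269.9 to 342.2 TPM in the embryo, against 25727 to 27490 TPM in the adult, the 6 osteoblast markers to 26.9 to 60.8 TPM and 284.7 to 475.7 TPM, and the 5 hypertrophic chondrocyte markers to 71.4 to 152.7 TPM and 889.5 to 1153 TPM. By gene, 3 of 5 synovial and superficial zone markers rose and 2 fell, 4 of 6 osteoblast markers rose and 1 fell, and of 4 tested hypertrophic markers 1 rose and 1 fell. Over all genes tested 23.9% rose and 21.4% fell. Some markers called in these lists, among them osteoblast markers listed at 0 in every embryonic sample, passed the filter through a single stage. The stage means of such genes had to differ, so their calls are a description.

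*Fgf1*, which binds every FGF receptor, lies on chromosome 18 from 38838673 to 38929472. It was at 0.774, 0.699 and 0.632 TPM in the embryo, against 5.84, 6.65 and 27.0 TPM in the adult. All adult values were above all embryonic ones, and adult sample 3 stood well above the other two. This was a log2 fold change of 2.74 (SE 0.581, limma adjusted p = 0.00518), and 2.09 without adult replicate 3.

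*Fgf2* lies on chromosome 3 from 37348346 to 37410108. It was at 56.0, 55.3 and 64.1 TPM in the embryo, against 65.2, 62.7 and 39.3 TPM in the adult. The stages overlapped, with 2 adult samples at the level of the highest embryonic one and adult sample 3 the lowest of all. On the log2 scale the change was -0.10 with a 95% confidence interval of -0.59 to 0.39 (limma adjusted p = 0.73), and 0.13 without adult replicate 3. *Nudt6*, transcribed from the other strand, shares 640 exonic bases with *Fgf2* and was at 51.2, 79.4 and 14.6 TPM, then 12.5, 89.3 and 65.6 TPM in the same order. Since the sources used here do not state that strand was used in the quantification, reads from these bases cannot be told apart.

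*Fgf9*, a ligand known from limb skeleton and joints, lies on chromosome 14 from 58070547 to 58112720. It was at 2.15, 2.01 and 0.927 TPM in the embryo, against 0, 0.341 and 3.77 TPM in the adult, with adult sample 3 the highest of all 6. No direction can be read from these values, since the log2 fold change was -0.50 with a 95% confidence interval of -1.996 to 0.99 (limma adjusted p = 0.555). Leaving out adult replicate 3 gave -1.18, and leaving out adult replicate 1 gave -0.06.

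The 5 ligands summed to 132.4, 119.0 and 127.3 TPM in the embryo, against 76.7, 75.5 and 73.0 TPM in the adult. *Fgf2* and *Fgf18* headed the embryonic ligands with overlapping ranges, at 46.4% ± 4.02 and 43.0% ± 5.01 of the sum (SD, n = 3). In the adult samples *Fgf2* stood alone at the top with 85.1%, 83.1% and 53.9%, *Fgf1* came next without overlap, and the ranges of *Fgf18*, *Fgf9* and *Fgf10* overlapped between neighbours. The share of *Fgf1* was 7.62% and 8.80% in adult samples 1 and 2 and 36.9% in adult sample 3. Its difference between the stages was 17.2 percentage points, and 7.65 without adult replicate 3. The shares of *Fgf2* and *Fgf18* did not overlap between the stages (exact permutation p = 0.1 for each, the smallest possible), and that of *Fgf9* did (p = 1). Those of *Fgf1* and *Fgf10* did not overlap either (exact permutation p = 0.1 for each). Both genes averaged under 1 TPM at one stage, so this is a description. A share also depends on the other ligands. The level of *Fgf2* itself overlapped between the stages, while the sum was lower in the adult. Adult sample 3 thus held the lowest adult *Fgfr2*, *Fgfr3*, *Fgfrl1*, *Fgf2*, *Fgf10* and *Fgf18* and the highest adult *Fgfr1*, *Fgf1* and *Fgf9*.

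For the 3 members with the largest change at a pseudocount of 1, the genes with the nearest profile over the 6 samples were found by the root mean square difference of centred log2(TPM + 1) values. With a pseudocount of 0.1 the change of *Fgf1* (3.68) was larger than that of *Fgf18* (-3.61). For *Fgf18* they were *Wnt5b* (0.16), *Aif1l* (0.20) and *Ccdc102a* (0.20). For *Fgf10* they were *Ptk7* (0.15), *Scd2* (0.15) and *Ncald* (0.18), and for *Fgfr4* they were *Aif1l* (0.19), *Olfml1* (0.19) and *Fndc3c1* (0.20). *Ptk7*, a WNT co-receptor, was at 76.6, 55.0 and 74.1 TPM in the embryo, against 7.73, 5.03 and 4.36 TPM in the adult. *Wnt5b*, a WNT ligand of cartilage, was at 12.4, 13.3 and 13.5 TPM, then 0.722, 0.583 and 0 TPM. *Aif1l*, the nearest to *Fgfr4*, was at 17.3, 11.7 and 8.58 TPM, then 0.228, 0.561 and 0 TPM. *Wnt5b* and *Aif1l* passed the filter through the embryonic samples alone. Values are given for the gene ranked nearest to each member, and links between these genes were not tested.

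Other genes of the pathway were read from 5 lists. Of the 13 other FGF ligands 5 were tested, and 2 fell and 0 rose from embryo to adult, against 21.4% and 23.9% of all genes. The list had a median of -0.49 beside 0.16 over all genes. *Fgf16*, like *Fgf13*, passed the filter through the embryonic samples alone, so the stage means of both had to differ. *Fgf16* was at 7.19, 9.96 and 10.9 TPM in the embryo, but was listed at 0 in all 3 adult samples (limma adjusted p = 3.37e-04). *Fgf21*, a metabolic hormone, was at 12.1, 19.5 and 13.3 TPM, then 2.63, 1.37 and 10.6 TPM (log2 fold change -1.76, limma adjusted p = 0.0341). The call of *Fgf21* was lost without any embryonic sample and without adult samples 1 or 2, at -1.89, -1.56 and -1.82 (adjusted p = 0.0747, 0.124 and 0.0842) without embryonic replicates 1, 2 and 3 and at -1.58 and -1.27 (0.101 and 0.0981) without adult replicates 1 and 2, so that 1 ligand of the list was lower in each of these. Without adult replicate 1 another ligand, *Fgf20*, named after its values were seen, passed as higher. *Fgf20* was listed at 0 in every embryonic sample and passed the filter through the adult samples alone, so this call is a description. *Fgf7*, which like *Fgf10* signals from mesenchyme, was at 69.4, 33.3 and 52.1 TPM, then 24.9, 33.2 and 51.4 TPM and missed the threshold (limma adjusted p = 0.248), though it was chosen after its values were seen. *Fgf3* and *Fgf4* were listed at 0 in every sample. Of the 4 intracellular FGF homologous factors 2 were tested, and *Fgf13*, a partner of sodium channels, was at 4.06, 5.68 and 10.6 TPM, then 0.517, 0 and 0 TPM (limma adjusted p = 0.00272).

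Co-receptors, heparan sulfate carriers and FGF binding proteins were mostly lower in the adult samples. Of 20 genes 16 were tested, 10 were lower and 1 was higher, against 21.4% and 23.9% of all genes, and the list median was -1.60. Among the 10 is *Gpc2*, at 4.58, 6.68 and 5.18 TPM in the embryo, against 2.39, 0.113 and 0 TPM in the adult. It passed the filter through the embryonic samples alone, so its stage means had to differ. The perichondrium, tendon and fibroblast markers and the chondrocyte markers given above were mostly lower too, and their part in this list was not tested. *Gpc3*, a glypican that carries heparan sulfate at the cell surface, was at 878.3, 774.0 and 902.0 TPM in the embryo, against 2.81, 1.13 and 3.81 TPM in the adult (log2 fold change -7.97, SE 0.282, limma adjusted p = 3.85e-07). *Flrt2*, a membrane protein of the FLRT family that can bind FGF receptors, was at 27.8, 18.4 and 39.7 TPM, then 1.13, 1.46 and 6.84 TPM (log2 fold change -3.04, limma adjusted p = 0.00216). *Sdc4*, a syndecan, was the gene that rose, from 438.9, 481.9 and 488.4 TPM to 1395, 944.2 and 939.8 TPM (log2 fold change 1.19, limma adjusted p = 5.93e-04). *Gpc1* also passed when the 20 highest genes were left out, which made 2 higher. *Hspg2*, encoding perlecan, which holds FGF2 in the matrix, was at 334.2 to 469.8 TPM, then 320.4 to 367.3 TPM (limma adjusted p = 0.303), and *Klb* and *Kl*, the klotho co-receptors, did not pass the filter on low values. *Gpc1*, *Gpc2*, *Hspg2*, *Klb* and *Kl* were chosen after their values were seen.

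The signal transducers did not move one way. Of 20 tested genes 5 were higher and 3 lower, against 23.9% and 21.4% of all genes, so the list was near the background, and its median was 0.09. *Map2k1*, the kinase MEK1, was at 27.6, 32.2 and 36.0 TPM in the embryo, against 74.2, 53.8 and 58.6 TPM in the adult (log2 fold change 0.93, limma adjusted p = 0.00482). *Gab1*, an adaptor, was at 66.2, 56.6 and 64.1 TPM, then 17.6, 32.1 and 31.5 TPM (log2 fold change -1.22, limma adjusted p = 0.0043). *Frs3*, an adaptor related to FRS2, was at 2.00, 3.11 and 0.227 TPM, then 5.32, 5.65 and 8.09 TPM (log2 fold change 1.55, limma adjusted p = 0.0406). Its call was lost without embryonic replicates 1 and 3 (1.69 and 1.05, adjusted p = 0.0734 and 0.113) and without adult replicates 1, 2 and 3 (1.65, 1.62 and 1.39, adjusted p = 0.0696, 0.0783 and 0.0976). The balance of the list followed the scaling, with 2 higher and 5 lower by the median of ratios, 2 and 2 under quantile normalization, and 5 and 2 without the 20 highest genes, and the number higher was 2 without embryonic replicates 1 or 3 and 3 without embryonic replicate 2 or adult replicates 1 or 3.

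**Figure D4:**
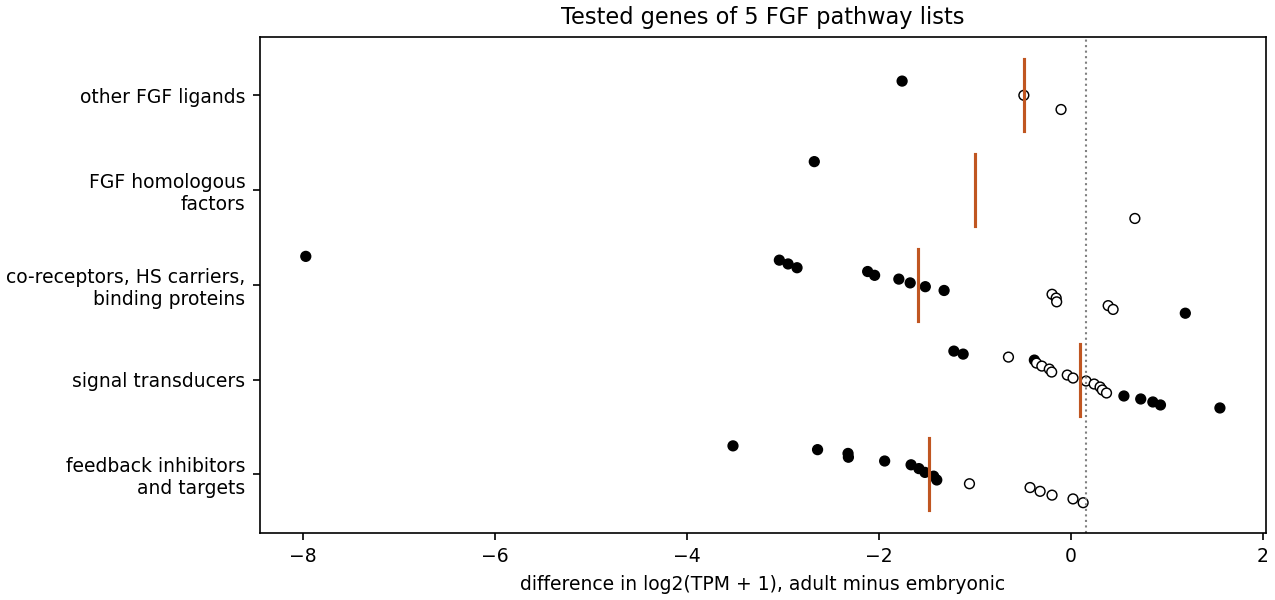
Difference in log2(TPM + 1), adult minus embryonic, of the tested genes of the 5 pathway lists (HS, heparan sulfate), leaving out the points of *Fgf16* and *Fgf20*, which are listed at 0 in all samples of a stage. Filled circles had a limma adjusted p under 0.05, orange bars mark the list medians and the dotted line the median of all genes, 0.16. The feedback inhibitors and targets and the co-receptors lie mostly to the left, the signal transducers on both sides.

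Feedback inhibitors and transcription targets of FGF signaling were the other list that was mostly lower in the adult samples. Of the 17 listed 16 were found and tested, 10 were lower and 0 higher, against 21.4% and 23.9% of all genes, and the list median was -1.47. The number lower was 9 to 11 over the alternatives. *Ccnd1*, encoding cyclin D1, was at 78.7, 60.3 and 73.1 TPM in the embryo, against 8.70, 4.49 and 3.51 TPM in the adult (log2 fold change -3.52, SE 0.319, limma adjusted p = 5.84e-05). *Spry1*, a Sprouty inhibitor, was at 33.4, 21.8 and 37.3 TPM, then 3.73, 8.77 and 1.68 TPM (log2 fold change -2.64, limma adjusted p = 0.00239). The genes named next were chosen after their values were seen.

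*Spry2* was at 337.6, 305.5 and 309.9 TPM, then 104.8, 137.6 and 111.5 TPM, and *Spry4* at 80.4, 60.2 and 79.0 TPM, then 9.83, 19.9 and 13.1 TPM. *Dusp6*, the phosphatase of ERK, was at 174.5, 206.6 and 155.2 TPM, then 43.2, 52.7 and 74.2 TPM (log2 fold change -1.66, limma adjusted p = 3.52e-04). *Etv5*, an ETS factor, was at 181.0, 125.7 and 151.7 TPM, then 51.9, 74.7 and 47.2 TPM (log2 fold change -1.40, limma adjusted p = 8.87e-04). Its relative *Etv4* overlapped between the stages, at 22.9, 17.4 and 56.0 TPM, then 24.3, 12.5 and 36.7 TPM (limma adjusted p = 0.613). The immediate early genes *Egr1* and *Ier2* were high at both stages, *Egr1* at 941 to 1067 TPM and at 689 to 991 TPM. Neither gene passed the threshold (limma adjusted p = 0.331 and 0.914). Signals besides FGF can induce genes of this list, those that were lower as well as these 2. Most markers of chondrocytes and of perichondrium, tendon and fibroblasts were lower too, while some other cell type markers given above were higher. Neither the part of FGF signaling nor that of cell composition in this list was tested.

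**Figure D5:**
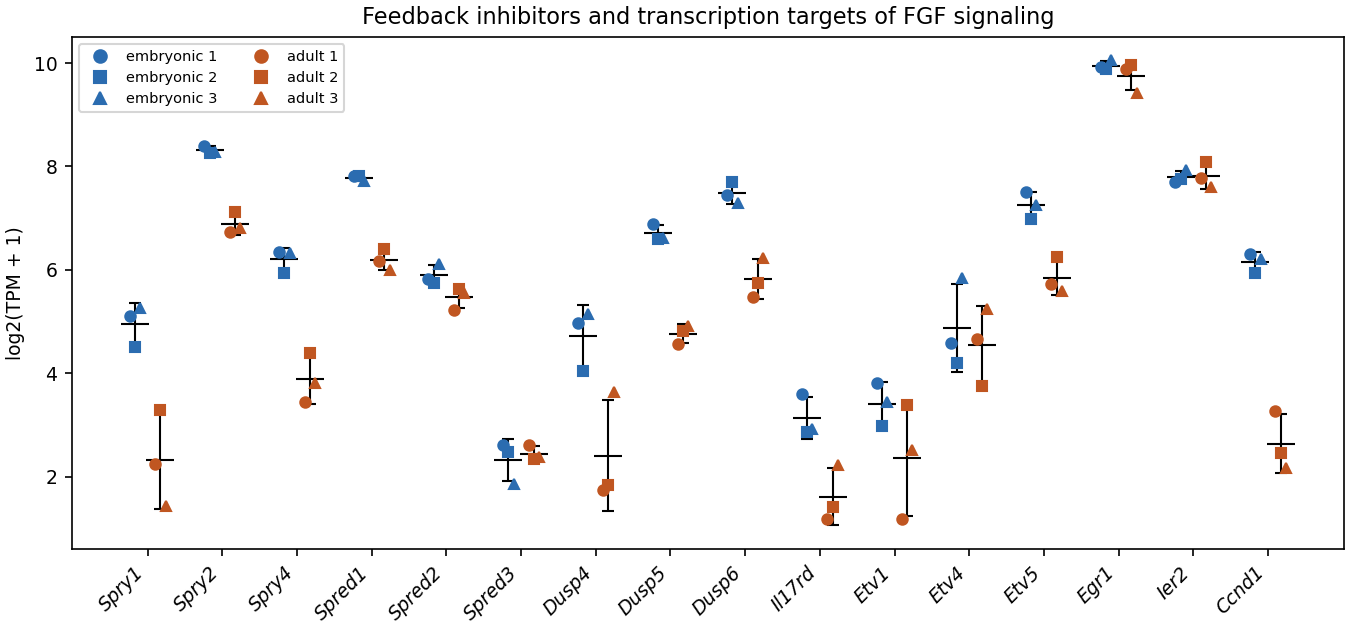
Levels of 16 feedback inhibitors and transcription targets as log2(TPM + 1) in each embryonic (blue) and adult (orange) sample, with the mean (dash) and SD (bar). The Sprouty genes, *Dusp6* and *Ccnd1* are lower in all 3 adult samples, while *Egr1* and *Ier2* overlap between the stages.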

How the data were processed

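RNA-seq profiles of 3 embryonic and 3 adult mouse samples were used, 6 in all. By the authors' methods reads were mapped to GRCm38 and quantified with RSEM, whose version is not given in the sources used here, and the deposited values are log2(TPM + 1), a log2 scale. The methods also name EBSeq, a test for counts. Deposited values are no counts, so a linear model from limma (version 3.58.1, under R 4.3.3) with a trended eBayes step was fitted with stage as its sole term, keeping the pseudocount of 1 and dropping genes that averaged below 1 TPM. GENCODE M21 (GRCm38) named 21902 of 22032 identifiers and gave positions and overlaps. Shares and ratios within a sample went to an exact permutation test, two-sided. Depth cannot be read from TPM. The fit was tested on simulated data.

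The members, lists and tests were chosen with earlier results of these data known. Named in the text are all members, up to 2 called genes per direction from each of the 5 pathway lists (74 genes) by size of change, the 3 genes nearest in profile to each of the 3 members with the largest change at that pseudocount, and the sort genes. Some genes that this rule or the marker lists would name are not reported here. Others, and the promoter motifs, were chosen after values were seen. As alternatives, the pseudocount was set to 0.1, the filter removed or raised to 5 TPM, samples rescaled (quantile, median of ratios, or without the 20 highest genes), eBayes run without trend or robustly, a replicate block added, the adjusted p limit lowered to 0.01, and single samples left out. Python 3.11.15 with pandas 2.3.3 and numpy 2.4.6 made the tables, and matplotlib 3.10.9 the figures.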

Additional observations from a re-analysis of the deposited data

How the results depend on the processing

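Of the 10 members 6 or 7 passed the threshold under each of the 15 alternatives, the one that changed being *Fgfr1*. *Fgfr1* was also lost with no filter (adjusted p = 0.0638) and without the trend of eBayes (0.16). *Fgfr2*, *Fgfrl1* and *Fgf18* kept call and direction under all of them, as did *Fgfr4*, *Fgf10* and *Fgf1*, for which the filter on low values makes this no sign of stability. *Fgf2*, never called, changed sign without adult replicate 3, its log2 fold change lying between -0.23 and 0.13 with single samples left out. With an adjusted p under 0.01 the count over all genes was 3718 in place of 5949. The pathway lists together held 25 to 32 called genes. Scaling by the median of ratios gave 2613 genes higher and 3238 lower, against 3140 and 2809. The replicate numbers shared by the stages did not pair the samples, since the deviations of same-numbered samples correlated at -0.01, -0.02 and -0.02. With the replicate block *Fgfr1* had an adjusted p of 0.112 and *Frs3* one of 0.062, the members called numbered 6, and 5430 genes were called in all. Depth is unknown, so for genes under 1 TPM in a stage, such as *Fgf10*, *Fgfr4* and *Fgf1*, the size of a change is uncertain. *Frs3* was also lost with a pseudocount of 0.1 (adjusted p = 0.0723), no filter (0.0682), quantile normalization (0.0643) and the median of ratios (0.056), and *Fgf21* with no filter (0.0689) and without the trend (0.0552).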
